A study of Mus musculus with 5 samples.

Results

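The Serpinb genes encode the clade B serpins, protease inhibitors that mostly stay inside the cell. They were taken as every row of the E16 table whose gene name is Serpinb followed by a digit, which gave 27 of 23997 gene names. Of these, 15 lie in a cluster on chromosome 13 that spans 1161 kb (chr13:32842092-34002794, GRCm38) and 12 lie in a cluster on chromosome 1 that spans 748 kb (chr1:106861175-107608978). The family was chosen from the contrast described here, since Serpinb1c was already known to be among the largest rises in it. The values of its genes in cKO and control libraries are therefore given as a description, with standard errors and without p-values.

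The samples are whole cerebral cortices dissected at embryonic day 16 (E16) from C57BL/6 mice. Control animals carry the Emx1-driven Cre recombinase with the genotype Uhrf1 +/-, and conditional knockout (cKO) animals carry the same Cre with the genotype Uhrf1 -/-. The Cre is active in the dorsal telencephalon, where it removes exon 4 of the floxed Uhrf1 gene, so cells of other origin in the dissected cortex keep it. There were 3 control libraries, named MG15, MG16 and MG17, and 2 cKO libraries, named MG18 and MG19, described in the methods of the study as biological replicates. Uhrf1 is a chromatin protein that brings the maintenance methyltransferase Dnmt1 to newly replicated DNA, and the comparison asks what loss of this function does to transcription in the developing cortex.

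A serpin presents a flexible loop near its C terminus to a protease. When the protease cuts this reactive centre loop, the serpin folds the loop into its own main sheet and traps the enzyme. The hinge at the start of the loop must slide into the sheet, and in inhibitory serpins it is usually built of small residues such as alanine. Clade B serpins lack a classical signal peptide and are best known from leukocytes and epithelia. Serpinb1 inhibits the neutrophil proteases elastase, cathepsin G and proteinase 3, Serpinb6 inhibits cathepsin G, and Serpinb9 inhibits granzyme B.

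The coding sequences of the reactive centre loop are shown for the Serpinb1 genes, on which the comparison turns, and for Serpinb6a, the most abundant family member in these cortices. They were read 5′ to 3′ on the coding strand from the GRCm38 transcripts. Capitals mark the 30 bases, or 10 codons, that align with the hinge of Serpinb1a, and lower case marks the rest of the stretch up to a conserved proline and phenylalanine. In every case the stretch lies within the last exon.
Serpinb1a: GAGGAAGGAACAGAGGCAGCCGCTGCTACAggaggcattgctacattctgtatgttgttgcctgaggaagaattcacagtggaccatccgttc
Serpinb1c: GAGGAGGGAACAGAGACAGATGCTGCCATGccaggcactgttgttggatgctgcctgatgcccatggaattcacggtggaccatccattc
Serpinb1b: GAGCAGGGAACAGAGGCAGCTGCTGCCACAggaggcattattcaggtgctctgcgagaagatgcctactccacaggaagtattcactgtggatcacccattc
Serpinb6a: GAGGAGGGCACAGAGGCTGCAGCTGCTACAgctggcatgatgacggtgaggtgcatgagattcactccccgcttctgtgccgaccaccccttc

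The Serpinb1a loop lies at chr13:32842884-32842976 on the minus strand in exon 7 of 7. The Serpinb1c loop lies at chr13:32881899-32881988 on the same strand in exon 7 of 7. The Serpinb1b loop lies at chr13:33093767-33093868 on the plus strand in exon 7 of 7, and that of Serpinb6a at chr13:33918107-33918199 on the minus strand in exon 8 of 8. The hinge of Serpinb1c differed from that of Serpinb1a at 7 of 30 bases and in 3 of 10 encoded residues. It held 2 alanine codons, against 4 in Serpinb1a. Serpinb1b differed from Serpinb1a at 4 bases and in 1 residue, and kept 4 alanine codons. The hinge of Serpinb6a differed at 4 bases and in 0 residues, although the whole Serpinb6a coding sequence is much farther from Serpinb1a than the other Serpinb1 genes are.

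Over the aligned coding sequence, Serpinb1a shared 89.7% of bases with Serpinb1c and 90.6% with Serpinb1b, and Serpinb1b and Serpinb1c shared 87.7%. Across all 351 pairs of the 27 genes the identity ran from 55.6% to 98.7% with a median of 60.6%. In the matrix of coding identity along chromosome 13, the genes fall into a Serpinb1, a Serpinb6 and a Serpinb9 group that interleave along the chromosome. The methods of the study say that reads mapping to several places were removed, although the filter printed there would do otherwise, so the effect of identical stretches on a value is not known here. None of the 12 genes with a value above 0 in any library shared an identical run of 100 bases, the length of 1 read, with another annotated transcript. Copies outside these transcripts were not searched for. Shared runs were found in 8 of the 27 genes, most of all in Serpinb9f, where 52.3% of the 100-base windows also occur elsewhere, and in Serpinb9g with 38.5%. All of these 8 genes were listed at 0 in every library.

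**Figure D1:**
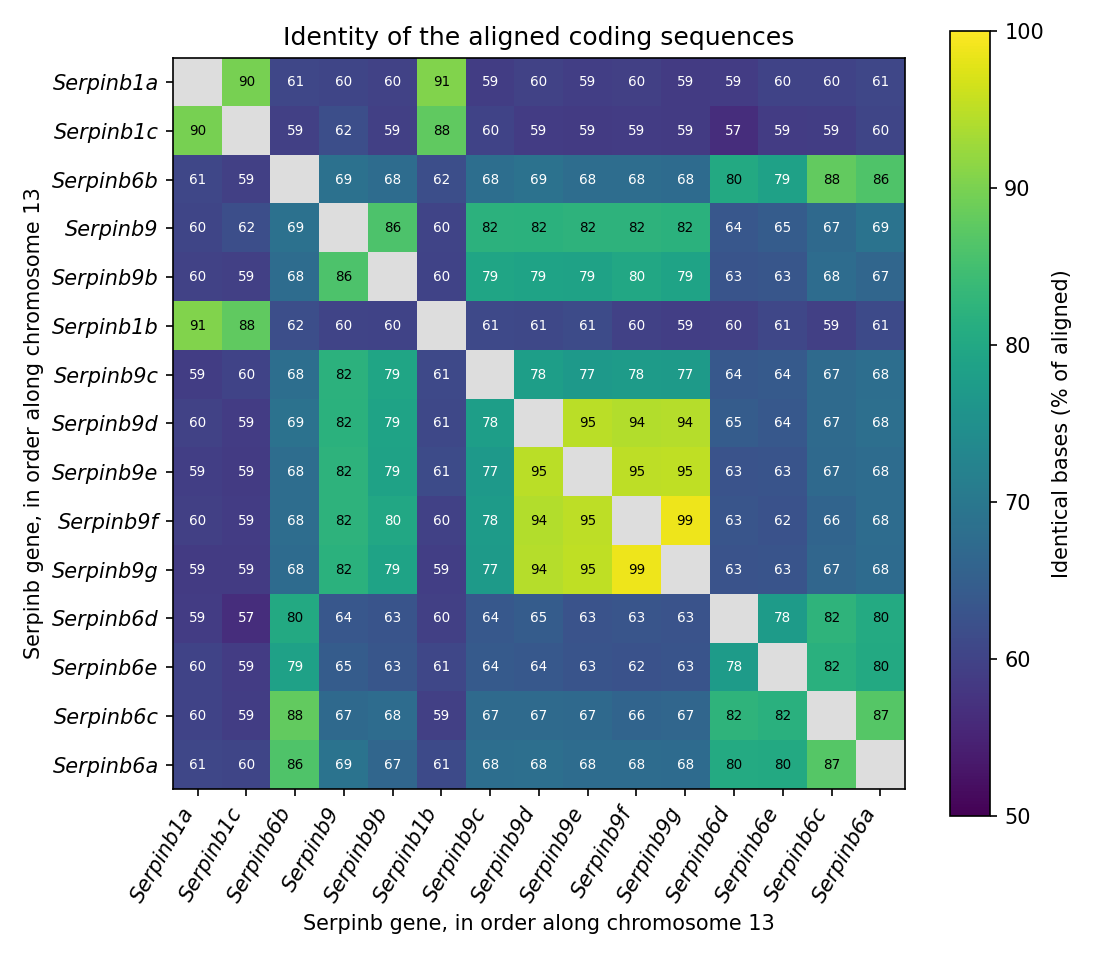
Identity between the aligned coding sequences of the 15 Serpinb genes of the chromosome 13 cluster, as a percentage of aligned bases, with rows and columns in chromosomal order. Serpinb1a, Serpinb1b and Serpinb1c form a block of 87.7% to 90.6% identity although Serpinb1b lies apart from the other 2 genes, and Serpinb9f and Serpinb9g reach 98.7%.

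Gene levels are given as FPKM, the number of fragments per kilobase of transcript, normalised to sequencing depth, a scale on which genes of different length can be compared. The table holds no counts. From the steps between low values the libraries were estimated to hold about 44000000, 16500000 and 10750000 fragments for MG15, MG16 and MG17, and about 9000000 and 10500000 fragments for MG18 and MG19. These estimates are rough, because between 62.4% and 79.6% of the low values came within 0.25 fragments of a whole number, against 50% by chance. Uhrf1, the targeted gene, stood at 7.24, 13.2 and 12.95 FPKM among controls, against 2.75 and 2.61 FPKM among cKO libraries. It fell by 1.97 on the log2 scale (SE 0.28, adjusted p = 0.00775, limma). With MG18 or MG19 left out, the adjusted p became 0.258 or 0.266.

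Most of the family was not detected in E16 cortex of either genotype. In all, 15 of the 27 genes were listed at 0 FPKM in all 5 libraries. On chromosome 13 these were Serpinb6d, Serpinb6e, Serpinb9c, Serpinb9d, Serpinb9e, Serpinb9f and Serpinb9g. On chromosome 1 they were Serpinb3a, Serpinb3b, Serpinb3c, Serpinb3d, Serpinb7, Serpinb11, Serpinb12 and Serpinb13, among them the mouse counterparts of the squamous cell carcinoma antigens. For these 15 genes 1 fragment would be worth about 0.059 to 0.11 FPKM in MG18 and 0.012 to 0.022 FPKM in MG15, so that expression under these levels was not detectable. An exact 0 in such a table can also be a failed estimate.

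Of the other 12 genes, 5 had a control mean of at least 0.1 FPKM and 7 had a control mean above 0 but under 0.1 FPKM. All 15 genes at 0 in every control were also at 0 in both cKO libraries. Among the 5 expressed genes the cKO mean was lower in 5, and over all genes tested with a control mean of at least 0.1 FPKM the cKO mean was lower in 53.9%. Among the 7 genes of low control level the cKO mean was higher in 5 and lower in 2, and over all 2278 genes of that control level, small RNAs left out, it was higher in 50.2%. In Serpinb5, Serpinb8 and Serpinb10, 3 of the 5, no more than about 3.9 fragments stand behind any value. The largest differences, in Serpinb1c and Serpinb1a, were thus found among genes that were nearly silent in controls.

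**Figure D2:**
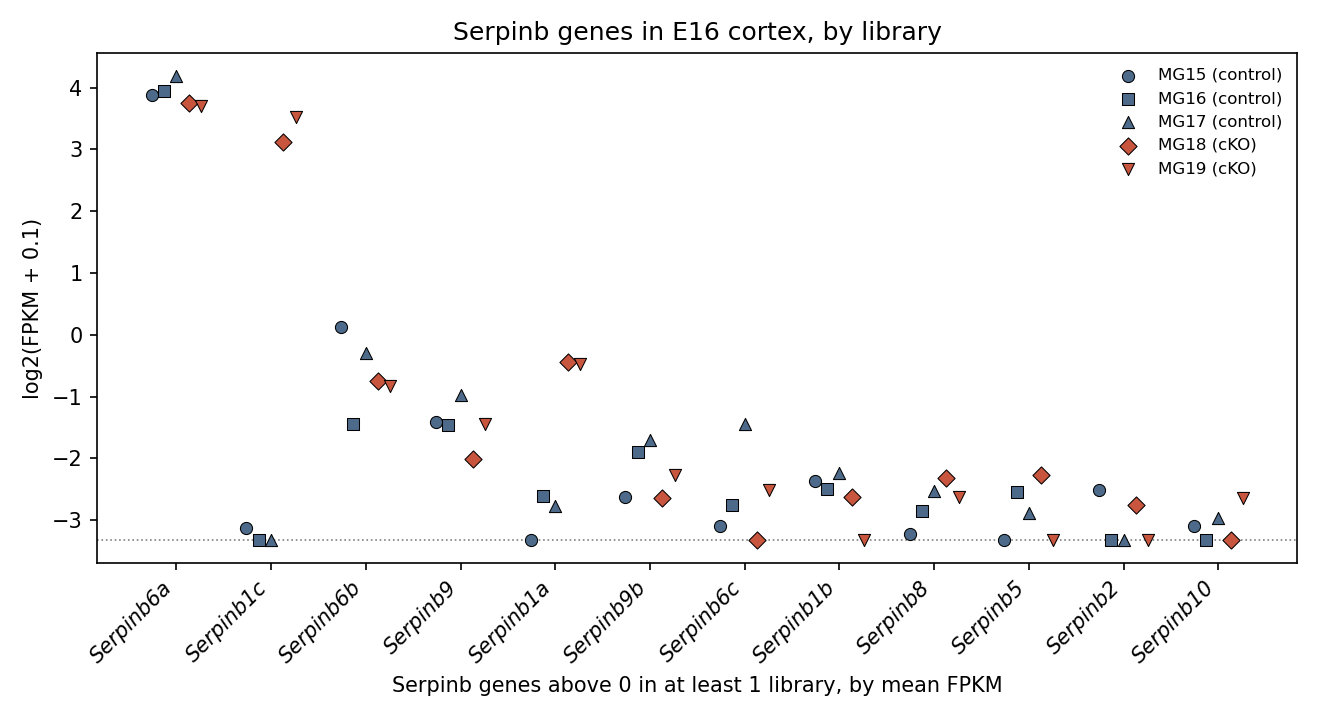
Level of the 12 Serpinb genes that were above 0 in at least 1 library, as log2(FPKM + 0.1) for each library, ordered by mean FPKM. Blue symbols are the 3 controls and red symbols the 2 cKO libraries, and the dotted line marks 0 FPKM. The cKO symbols lie far above the controls for Serpinb1c and Serpinb1a and slightly below them for Serpinb6a.

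In MG15, MG16 and MG17 Serpinb1c stood at 0.0141, 0 and 0 FPKM, and in MG18 and MG19 at 8.57 and 11.4 FPKM. Both cKO libraries lay far above all controls, and the control value in MG15 corresponds to about 0.89 fragments. The cKO values correspond to about 111 and 172 fragments. On the log2(FPKM + 0.1) scale the difference was 6.58 (SE 0.35), the 9th largest rise of 14698 genes tested. In the cKO libraries Serpinb1c reached 64.3% and 88.0% of the level of Serpinb6a in the same library. The gene lies on the minus strand at chr13:32881218-32940628, and an annotated pseudogene without a row in the table, Gm18311, overlaps it. Under that name the pseudogene was not among the transcripts searched for shared runs.

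Serpinb1a is the annotated neighbour of Serpinb1c on the same strand, at chr13:32842092-32853206, with 28.0 kb between them. It is the mouse gene usually taken as the counterpart of human SERPINB1. It stood at 0, 0.0637 and 0.0469 FPKM among controls, against 0.634 and 0.617 FPKM among cKO libraries. The groups did not overlap, but the depth behind these values is small, at about 9.8 and 11 fragments in cKO and at most about 1.8 in a control library. The difference was 2.44 (SE 0.47) on the log2(FPKM + 0.1) scale, the 127th largest rise. Its cKO level was 7.39% of that of Serpinb1c in MG18 and 5.40% in MG19.

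Serpinb1b, the third Serpinb1 gene, lies farther along the cluster, on the plus strand and beyond Serpinb6b, Serpinb9 and Serpinb9b. Its values were low in all libraries, at 0.0928, 0.0765 and 0.111 FPKM among controls, against 0.0614 and 0 FPKM among cKO libraries. Both cKO values lay below all controls, but its mean was under the 0.1 FPKM needed for testing, and no more than about 6.1 fragments stand behind any of the values. In MG18 and MG19 1 fragment would be worth about 0.074 and 0.064 FPKM, so no direction is read for this gene.

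Serpinb6a was the only family member above 1 FPKM in all 5 libraries. It stood at 14.7, 15.3 and 18.1 FPKM among controls, against 13.3 and 12.99 FPKM among cKO libraries, and 62.5% of genes tested had a lower mean. The cKO libraries lay just below all controls, with a cKO mean of 82.1% of the control mean and a log2 difference of -0.28 (SE 0.17). Serpinb6a lies on the minus strand at the end of the cluster and overlaps Nqo2, Ripk1 and the noncoding RNA 1110046J04Rik, all on the plus strand. The library kit preserves strand, and whether the counting used it is not given in the sources used here.

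Serpinb6b, a close paralog of Serpinb6a, stood at 0.997, 0.267 and 0.716 FPKM among controls, against 0.493 and 0.463 FPKM among cKO libraries. The controls spread on either side of the cKO values, and the log2 difference was -0.26 (SE 0.48). Serpinb6c stood at 0.268 FPKM at most, in MG17, and was at 0 in MG18. Its mean over the 5 libraries, 0.0815 FPKM, was under the level needed for testing.

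Serpinb9, the granzyme B inhibitor, stood at 0.277, 0.264 and 0.408 FPKM among controls, against 0.148 and 0.269 FPKM among cKO libraries. Serpinb9b stood at 0.0627, 0.169 and 0.207 FPKM among controls, against 0.0598 and 0.108 FPKM among cKO libraries. For both genes the groups overlapped, with log2 differences of -0.45 (SE 0.43) for Serpinb9 and -0.38 (SE 0.52) for Serpinb9b. For Serpinb9 the difference was about as large as its standard error, and for Serpinb9b it was smaller.

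The chromosome 1 cluster contributed only traces. Serpinb5, which encodes maspin, reached at most 0.108 FPKM. Serpinb8, known as an inhibitor of furin, reached at most 0.0999 FPKM and was above 0 in all 5 libraries. Serpinb2, which encodes an inhibitor of urokinase, and Serpinb10, described in haematopoietic cells, reached at most 0.0744 and 0.0604 FPKM. None of the 4 genes had a mean of 0.1 FPKM, so 0 of the 12 genes of this cluster were tested.

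**Figure D3:**
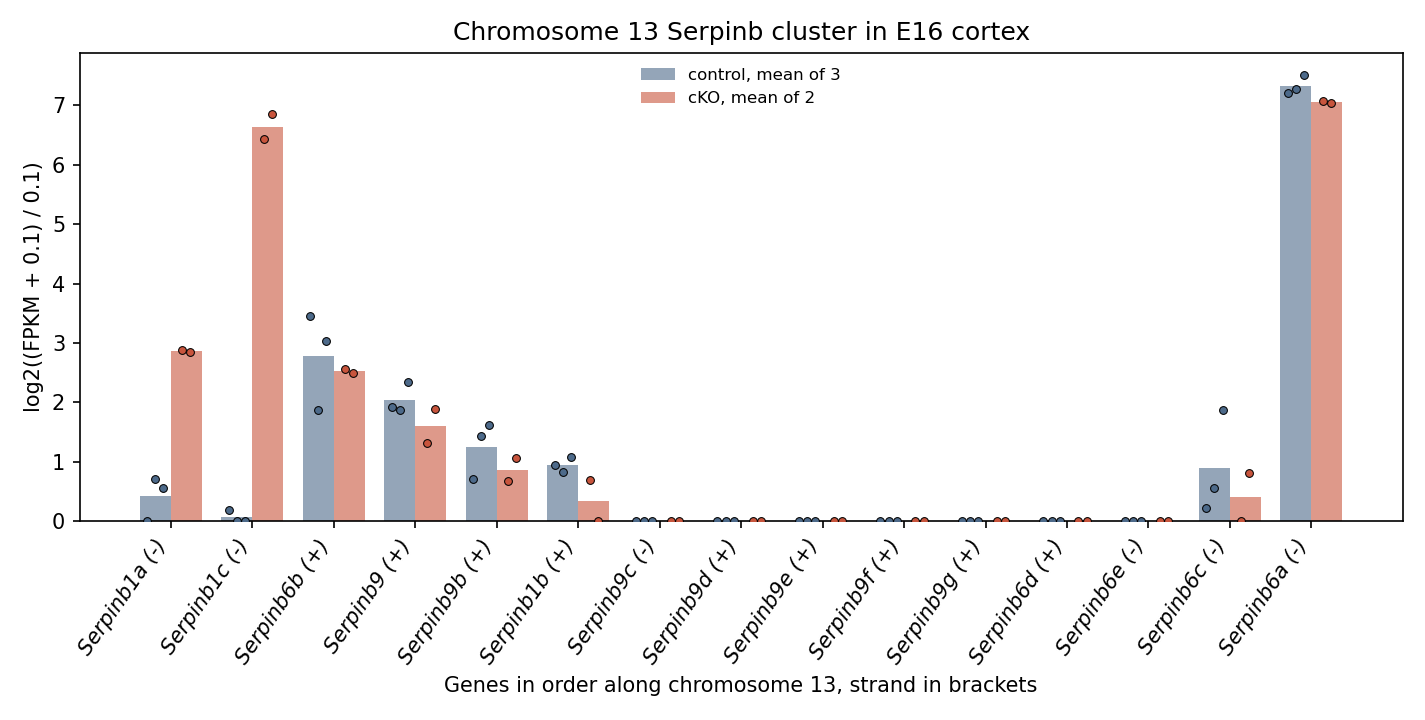
The 15 Serpinb genes of the chromosome 13 cluster in chromosomal order, with the strand in brackets. Bars are group means and dots are libraries, as log2((FPKM + 0.1) / 0.1), so that 0 on the axis is 0 FPKM. The 2 genes with cKO bars far above control, Serpinb1a and Serpinb1c, are the first 2 of the row, 7 genes in its middle are at 0 in all libraries, and Serpinb6a at the other end is high in both groups.

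The tests behind the counts were fitted with limma on log2(FPKM + 0.1) over the 14698 genes whose mean reached 0.1 FPKM, and 6 of the 27 Serpinb genes passed this filter. These were Serpinb1a, Serpinb1c, Serpinb6a, Serpinb6b, Serpinb9 and Serpinb9b, all on chromosome 13. Serpinb1a and Serpinb1c passed only through their cKO values, so that they had to differ. Genes were called at the thresholds of the study, a change of over 2-fold with an unadjusted p under 0.05, here referred to as the unadjusted thresholds. Of 342 genes tested with a control mean under 0.1 FPKM, 49.1% were higher in the cKO by them.

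By the unadjusted thresholds, 2 of the 6 genes were higher in the cKO, Serpinb1a and Serpinb1c, where 2.88% of all genes tested were, and 0 were lower, where 1.16% were (0 were lower at an unadjusted p under 0.05 at any fold in the limma fit). At an adjusted p under 0.05 (Benjamini and Hochberg) the same 2 were higher, where 1.10% of all genes were, and 0 were lower, where 0.163% were. The adjusted call of Serpinb1a was lost whichever of the 5 libraries was left out, which brought the count to 1, while its log2 difference stayed between 2.23 and 2.58. The call of Serpinb1c was kept, with 6.38 to 6.79. Both genes also met the definition of derepression in the methods of the study, a level under 0.1 FPKM in controls and over 0.1 FPKM in the cKO, applied here to group means together with the unadjusted thresholds, as did 1.14% of all genes tested. Both cKO libraries lay above all controls for 2 of the 6 genes, where 14.5% of all genes did, and below all controls for 1, Serpinb6a, where 16.3% did. The median log2 difference over the 6 genes was -0.27, against -0.02 over all genes tested. Since the family was chosen from this contrast, nothing is read from these counts.

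The summed level of the chromosome 13 cluster was 16.1, 16.2 and 19.8 FPKM among controls, against 23.3 and 26.0 FPKM among cKO libraries. The sum was higher in both cKO libraries than in every control. Without Serpinb6a it was 1.46, 0.887 and 1.76 FPKM among controls, against 9.97 and 12.96 FPKM among cKO libraries. Over the 12 genes of the cluster other than Serpinb1a, Serpinb1c and Serpinb6a it was 1.45, 0.824 and 1.71 FPKM among controls, against 0.762 and 0.914 FPKM among cKO libraries, where the groups overlapped.

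The make-up of the family's transcripts differed accordingly. Serpinb6a made up 90.4%, 93.9% and 90.5% of the summed Serpinb FPKM in controls, and 56.6% and 49.8% in the cKO libraries. Serpinb1c made up at most 0.0870% in a control and 36.4% and 43.8% in the cKO libraries. The chromosome 1 cluster summed to between 0.0988 and 0.135 FPKM in controls and to 0.257 and 0.123 FPKM in cKO libraries.

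The sequence before the gene start was examined because Uhrf1 acts on methylated CG pairs. Start windows of 300 bases, from 250 before to 50 after each RefSeq start, were available for 25 of the 27 genes, in 31 windows, and not for Serpinb1a and Serpinb13. The stretch before the nearer Serpinb1c start (chr13:32898212-32898390, GRCm38.p6, minus strand, 179 bases) and that before the farther Serpinb6a start (chr13:34002795-34002873, minus strand, 79 bases) are shown to contrast the gene that was close to 0 in controls with the one that was expressed there. Both are given 5′ to 3′ on the gene's strand, as the bases before the first annotated exon that lie in no exon of any gene, and capitals mark CG pairs.
Serpinb1c: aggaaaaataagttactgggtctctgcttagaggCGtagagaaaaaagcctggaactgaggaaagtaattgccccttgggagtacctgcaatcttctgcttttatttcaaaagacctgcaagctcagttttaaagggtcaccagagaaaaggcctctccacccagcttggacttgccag
Serpinb6a: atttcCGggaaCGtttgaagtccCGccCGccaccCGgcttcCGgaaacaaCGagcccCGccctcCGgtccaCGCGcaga

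The Serpinb1c stretch holds 1 CG pair in 179 bases and the Serpinb6a stretch holds 11 in 79. The latter lies within Ripk1, a kinase gene transcribed from the other strand, and borders a first exon of that gene, so that its CG pairs belong to the start of both genes. In the whole 300-base windows Serpinb1c held 2 CG pairs at its nearer start and 0 at its farther start, and Serpinb6a held 25 at its farther start and 5 at its nearer start. The median over all 32851 start windows of the RefSeq table was 7, and 23.3% of them held as few as 2 or fewer, while 83.1% held 25 or fewer. CG-poor windows were found at genes listed at 0 in all libraries as well as at Serpinb1c. They were also found at genes expressed in controls, with 2 CG pairs at Serpinb9b, 4 at Serpinb6b and 5 at Serpinb9, while Serpinb6c held 10. The Serpinb6b and Serpinb9 windows surround starts at chr13:32965261 and chr13:33004541, inside genes annotated from chr13:32956811 and chr13:32997061. No window was available at those outer ends. Serpinb9c, at 0 in every library, held 9 and 4 at its starts. In 21 of the 25 genes every window held fewer CG pairs than this median, and 11 of the 31 windows (35.5%) held none, against 5.43% of all windows. Which start of a gene was transcribed cannot be told from FPKM values of whole genes. Methylation was not analysed here, and the counts describe the reference sequence only.

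**Figure D4:**
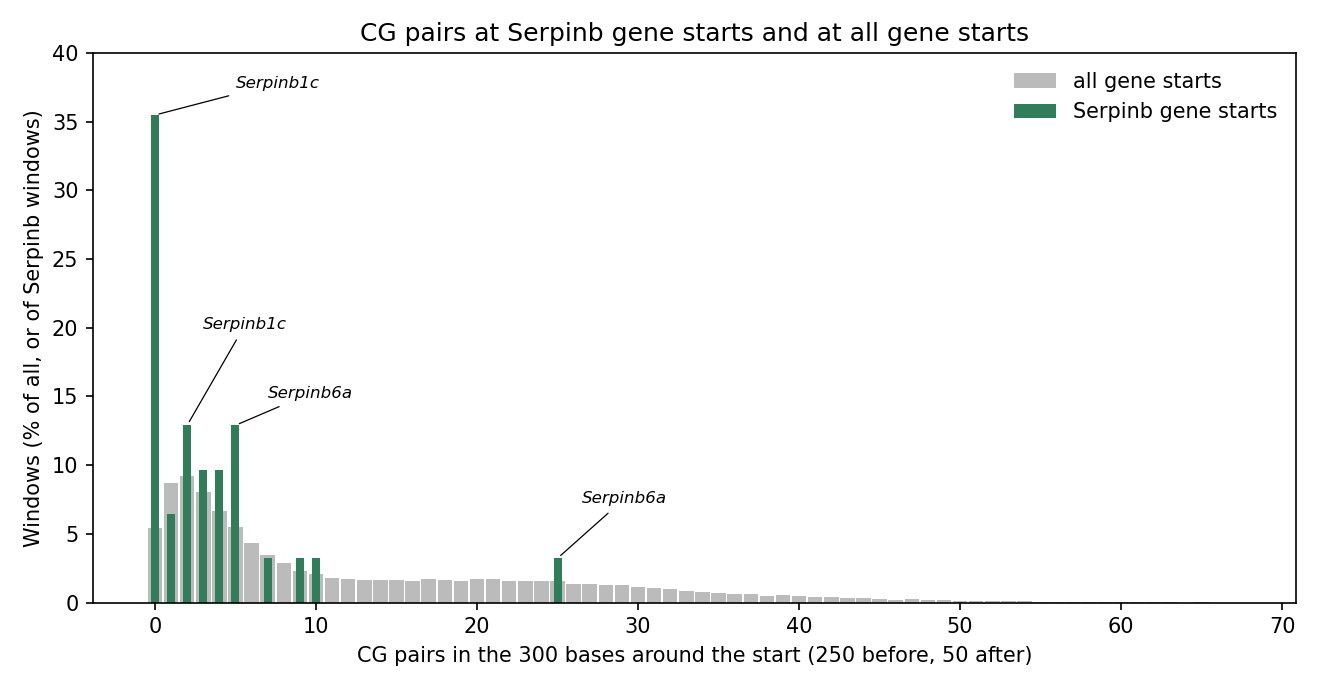
Number of CG pairs in the 300 bases around gene starts, for all 32851 RefSeq start windows in grey and for the 31 windows of 25 Serpinb genes in green, each as a percentage of its own windows. The 2 windows of Serpinb1c hold 0 and 2 CG pairs, at the low end where most Serpinb windows lie, and the farther start of Serpinb6a stands apart with 25.

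Neighbouring genes were compared to see whether the change at Serpinb1a and Serpinb1c extended beyond the family. Wrnip1, which encodes an ATPase that binds the Werner helicase, has its nearer end 19.5 kb outside the chromosome 13 cluster on the side of Serpinb1a. It stood at 46.9, 37.4 and 40.4 FPKM among controls, against 43.7 and 37.8 FPKM among cKO libraries (log2 difference -0.03, SE 0.16, adjusted p = 0.959, limma). For Bphl, a hydrolase gene 34.8 kb beyond Serpinb6a, the log2 difference was -0.32 with an SE of 0.17 (adjusted p = 0.492, limma). Nqo2 and Ripk1, which overlap Serpinb6a, had log2 differences of 0.01 (SE 0.31) and -0.10 (SE 0.23).

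Of the 20 flanking genes tested, 1 was higher and 0 were lower by the unadjusted thresholds in the limma fit, where 2.88% and 1.16% of all genes tested were. At any fold, 1 had an unadjusted p under 0.05. This gene was Cdh19, a cadherin known from Schwann cell precursors, which lies 3279 kb beyond the chromosome 1 cluster in a gene-poor region. It stood at 0.0379, 0.0194 and 0 FPKM in controls and rose to 3.80 and 5.74 FPKM in the cKO (log2 difference 5.34, SE 0.39, adjusted p = 1.2e-04, limma). Its control mean was 0.0191 FPKM, so that it passed the filter only through its cKO values and had to differ. The nearest tested genes of that cluster did not pass the threshold. For Vps4b, 64.5 kb before it, the log2 difference was -0.10 with an SE of 0.16 (adjusted p = 0.834, limma). For Cdh7, 2373 kb after it, the difference was -0.39 with an SE of 0.34 (adjusted p = 0.675, limma).

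Serpins of the other clades, most of which are secreted, were compared as the relatives outside clade B. Of 36 such genes in the table, 22 were listed at 0 in all libraries and 7 were tested. Serpina3n, an acute-phase serpin known from reactive astrocytes, was the 1 gene past the unadjusted thresholds, by which 2.88% of all genes tested were higher. Its control mean was 0.0723 FPKM, so that it passed the filter only through its cKO values. It stood at 0, 0.0293 and 0.188 FPKM among controls, against 1.23 and 0.329 FPKM among cKO libraries (log2 difference 2.28, SE 0.64, adjusted p = 0.207, limma), so that it did not pass the adjusted threshold. Without MG18 it was no longer past the unadjusted one. The most abundant were Serpini1, the neuronal serpin neuroserpin, and Serpinh1, a collagen chaperone. Their log2 differences were -0.30 (SE 0.16, adjusted p = 0.511) and 0.47 (SE 0.16, adjusted p = 0.323) in the limma fit.

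The proteases that clade B serpins are known to inhibit did not pass the thresholds. Of 17 listed genes, 3 were at 0 in all libraries and 10 were tested. In the limma fit 0 were higher and 0 lower, where 2.88% and 1.16% of all genes tested were, and 0 had an unadjusted p under 0.05. Of the Serpinb1 targets, Elane, neutrophil elastase, was at 0 in all 5 libraries, and Ctsg, cathepsin G, was above 0 in 2 controls only, at 0.110 FPKM at most. Prtn3, proteinase 3, stood between 1.79 and 2.74 FPKM in every library (log2 difference 0.03, SE 0.27, adjusted p = 0.971, limma). Ctsl, a lysosomal cathepsin, and Plat, tissue plasminogen activator, were the most abundant, with log2 differences of 0.01 (SE 0.18, adjusted p = 0.993) and -0.32 (SE 0.19, adjusted p = 0.545).

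Because clade B serpins are strongly expressed in leukocytes and epithelia, markers of such cells were measured beside the values of Serpinb1a and Serpinb1c. Fewer cells of a type and less RNA per cell cannot be told apart in these bulk samples. Of 9 neutrophil markers in the table, 3 were tested and 1 was higher by the unadjusted thresholds, where 2.88% of all genes tested were. This was S100a8, at 1.41, 0.598 and 2.08 FPKM among controls, against 4.23 and 4.70 FPKM among cKO libraries (log2 difference 1.79, SE 0.43, adjusted p = 0.117, limma). The other tested markers, S100a9 and Retnlg, overlapped between the groups (log2 differences 0.12, SE 0.53, and 0.55, SE 0.81). S100a9 had a mean of 1.53 FPKM in controls and 1.37 FPKM in the cKO. Of the granule genes, Mpo and Elane were at 0 in every library. Ngp was at 0 in the controls and at 0.113 and 0.179 FPKM in MG18 and MG19. Camp was above 0 in the control MG15 only, at 0.251 FPKM. Ltf was above 0 in 3 libraries, with a mean of 0.0374 FPKM in controls and 0.0171 FPKM in the cKO. The summed level of the list was 1.38 to 5.41 FPKM in controls and 6.15 to 6.39 FPKM in cKO libraries. Of this, S100a8 alone gave 4.23 FPKM in MG18 and 4.70 FPKM in MG19. The 12 macrophage and microglia markers had 0 calls at these thresholds and 3 higher at an unadjusted p under 0.05, Cx3cr1, Csf1r and C1qa (log2 differences 0.87, 0.71 and 0.49, SE 0.26, 0.25 and 0.21, adjusted p = 0.239, 0.323 and 0.413, limma). Tmem119, Aif1, P2ry12 and Mrc1 went the other way (log2 differences -0.62, -0.55, -0.18 and -0.01). Both cKO libraries lay above all controls for 3 of the 12, where 14.5% of all genes tested did. They lay below all controls for 1, Tmem119, where 16.3% did. The list summed to 31.0 to 60.8 FPKM in controls and 56.2 to 69.1 FPKM in cKO libraries.

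T and NK cell markers summed to at most 0.207 FPKM in any library, with 7 of 10 at 0 throughout, and trophoblast markers to at most 0.308 FPKM, with 7 of 9 at 0. By the unadjusted thresholds 2.88% of all genes tested were higher and 1.16% lower. Among 11 epithelial and keratinocyte markers Sfn was the 1 gene higher of 5 tested (log2 difference 1.30, SE 0.39, adjusted p = 0.240, limma), and the list summed to 3.36 to 5.27 FPKM in controls and 3.28 to 5.43 FPKM in cKO libraries. For the other tested markers, Krt1, Krt10, Dsp and Epcam, the groups overlapped (log2 differences -0.36, -0.30, -0.31 and 0.27). Among 5 fibroblast and meningeal markers, Col1a1 and Lum were higher at the same thresholds (log2 differences 1.64, SE 0.65, and 1.07, SE 0.44, adjusted p = 0.386 and 0.400, limma). The groups overlapped for Col1a1, at 0.203 to 0.816 FPKM among controls, 0.663 FPKM in MG18 and 3.19 FPKM in MG19. They also overlapped for Col1a2, Dcn and Col3a1 (log2 differences 0.73, 1.06 and 0.08). The list summed to 4.25 to 5.82 FPKM in controls and 10.3 to 10.8 FPKM in cKO libraries. Of this, Dcn gave 6.90 FPKM in MG18 and 0.997 FPKM in MG19. Of 3 choroid plexus markers tested, Ttr was lower (log2 difference -1.52, SE 0.65, adjusted p = 0.418, limma), and that list summed to 0.701 to 1.22 FPKM in controls and 0.0549 to 0.661 FPKM in cKO libraries.

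The 6 endothelial, 4 megakaryocyte and 1 mast cell markers tested had 0 calls, with 1 (Kdr, higher), 0 and 0 at an unadjusted p under 0.05. Endothelial markers summed to 72.4 to 106 FPKM in controls and 84.2 to 91.6 FPKM in cKO libraries, megakaryocyte markers to 1.02 to 3.94 and 1.69 to 3.05 FPKM, and mast cell markers to 6.89 to 10.9 and 6.06 to 6.56 FPKM. All 8 cortical markers were present in every library, the lowest value being 10.7 FPKM for Pax6, and the list was the most abundant, summing to 1057 to 1327 FPKM in controls and 871 to 926 FPKM in cKO libraries, with 0 calls and 3 lower at an unadjusted p under 0.05. These were Emx1, Pax6 and Eomes, with log2 differences of -0.58 (SE 0.17), -0.68 (SE 0.20) and -0.79 (SE 0.19) and adjusted p = 0.235, 0.230 and 0.118 (limma). Both cKO libraries lay below all controls for 4 of the 8, where 16.3% of all genes tested did. They lay above all controls for 1, Tbr1 (log2 difference 0.32, SE 0.18), where 14.5% did. Sox2 also had a positive log2 difference (0.05, SE 0.14). The part of any of these cell types in the levels of Serpinb1a and Serpinb1c was not tested.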

How the data were processed

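RNA-seq of whole E16 cortices was deposited as 1 table of FPKM values for 5 libraries. According to the methods of the study, the authors depleted ribosomal RNA, prepared strand-specific libraries, mapped paired reads to mm10 with TopHat2, kept proper pairs and removed multimapped, duplicated and poorly aligned reads. The samtools flags printed there would select the opposite, and which selection was run is not known here. FPKM came from Cuffdiff and cummeRbund. The sources used here do not give versions of these tools.

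From the deposited FPKM, log2(FPKM + 0.1) was fitted with limma 3.58.1 (trend on the mean, no covariate), cKO against control, over 14698 genes whose mean reached 0.1 FPKM, without small RNAs (57 of which reached that mean). Adjusted p followed Benjamini and Hochberg over all of them. The fit was tested on simulated data. Fold changes on this scale understate low genes. The family, the lists, the naming rule and the alternatives were chosen with earlier results of these data known. The rule names every Serpinb gene, flanking genes past both thresholds or nearest to a cluster, other serpins and proteases past both thresholds or most abundant, and markers past both. Nqo2, Ripk1, the other proteases and granule genes, and the macrophage, endothelial and cortical markers named lie outside it and were chosen after their values were seen. A few other names mark overlaps only.

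Positions, coding sequences and 100-base windows came from GRCm38 transcripts, and start windows from RefSeq. Coding sequences were aligned with Biopython 1.88. Approximate fragments assume a fragment length of 200 bases. R 4.3.3 ran the fits, Python 3.11.15 with pandas 2.3.3 and numpy 2.4.6 the rest, and figures were drawn with matplotlib 3.10.9.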

Additional observations from a re-analysis of the deposited data

How the results depend on the processing

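No paired analysis was possible because the labels give the libraries no replicate numbers that controls and cKO share. The alternatives were a pseudocount of 1 or of 0.01, a lower and a higher filter, median and quantile scaling, and leaving out each library in turn. Where a cKO library is left out, the other is assumed to vary as the controls do. By the unadjusted thresholds the count of higher Serpinb genes went from 2 to 1 with a pseudocount of 1 and with a filter at a mean of 1 FPKM. At an adjusted p it went to 1 with a pseudocount of 0.01, the 1 FPKM filter and quantile normalization, and was 1 without any of the 5 libraries. Serpinb1c was the gene kept in each case, and the filter at 1 FPKM removes Serpinb1a from the test. Serpinb genes with both cKO libraries above all controls numbered 1 with that filter. Those below all controls numbered 2 with genes above 0 in any library and with quantile normalization, and 1 to 3 when 1 library was left out (2 without MG15, 3 without MG16, 3 without MG19). Flanking genes called higher numbered 1 to 2 without 1 library (2 without MG19), and proteases called higher numbered 0 to 1 (1 without MG18). Serpins of other clades called higher numbered 0 with a pseudocount of 1 and with the 1 FPKM filter, and 0 to 1 without 1 library (0 without MG18). For Uhrf1 the log2 fold change ran from -2.25 to -1.82 without 1 library. The log2 difference of Serpinb1c ran from 3.44 (pseudocount 1) to 9.53 (pseudocount 0.01), and that of Serpinb1a from 0.65 to 4.19 with the same pseudocounts, so their size depends on the pseudocount. Of the other genes tested, Serpinb6b changed sign in 1 of 10 alternatives (0.08 without MG15), and Serpinb6a, Serpinb9 and Serpinb9b stayed negative in all of theirs. With 2 cKO libraries and about 10 fragments behind a value such as that of Serpinb1a, small changes in the weakly expressed genes could not be resolved.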
